A study of Mus musculus with 23 samples.

Results

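The Toll-like receptors Tlr1 to Tlr9 and their adaptor Myd88 were followed in 23 mouse low-input RNA sequencing libraries. The members were taken by symbol from the deposited count table, and all 10 were found among its 22488 gene symbols. Levels are given as CPM, the count of a gene per 1000000 counts of its library. The labels give the mice as C57, aged 6 to 18 weeks, with no genotype or treatment that sets groups apart. One set of 12 libraries came from splenic CD3+ T cells, with 3 libraries each from 100, 500, 1000 and 10000 cells. Diluted RNA gave the remaining 11, of which 2 were made from 0.1 ng and 3 each from 0.5, 1 and 5 ng. RNA was reverse transcribed from an oligo-dT primer in all of them, and the cDNA was cut and tagged by the Tn5 transposase.

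The diluted RNA carries conflicting labels. The series design calls it mouse spleen RNA, and the sample labels name raw 264.7, a macrophage cell line. All 15 B cell markers and all 15 T cell markers had counts in each of the 11 RNA libraries, and the B cell markers together took 2.98% to 4.04% of the counts. Counts for both sets go against a pure macrophage line, so the material is called diluted RNA here. The T cell markers took 0.502% to 0.897% of the counts in the T cell libraries and 0.194% to 0.222% in diluted RNA. Whether replicates are separate animals, cell preparations or dilutions is not stated in the labels, so p-values measure the spread between these libraries, which may be technical.

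Toll-like receptors are membrane proteins that bind molecules typical of microbes. Tlr1, Tlr2, Tlr4, Tlr5 and Tlr6 act mainly at the cell surface on lipids and proteins of bacteria, whereas Tlr3, Tlr7, Tlr8 and Tlr9 act in endosomes and are mostly known for nucleic acid ligands. Myd88 carries the signal from all of these receptors except Tlr3, which uses the adaptor Ticam1, and the pathway ends in NF-kB and interferon regulatory factors. In spleen, Tlr7 and Tlr9 are best known from B cells and plasmacytoid dendritic cells, and Tlr2 and Tlr4 from macrophages, neutrophils and other myeloid cells.

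Library totals ran from 1849181 to 3760980 counts in T cells and from 1737067 to 7908638 in diluted RNA. Even numbers made up 57.9% to 70.7% of the counts above 0 in each library, so the 2 reads of a pair may have been counted separately, and counts are not independent molecules. Each library held counts for 8 to 10 of the members. Replicate 3 of the 100-cell group stood apart from replicates 1 and 2. Its B cell markers took 1.60% of the counts, against 0.103% and 0.116%, its neutrophil markers 0.211%, against 0.00348% and 0.00514%, and its T cell markers 0.502%, against 0.785% and 0.811%. Tests of the 100-cell group are given with and without it.

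The stretch before the start site is shown for 3 members: Tlr9 and Tlr8, which had the largest differences between the materials at the highest inputs, and Myd88, the shared adaptor. The sequences are from RefSeq on GRCm38.p6, in which 8 of the 10 members had a promoter entry (Tlr4 and Tlr7 had none). They run 5′ to 3′ along the strand of the gene, and bases that GENCODE M21 places in an exon were left off. The intervals are chr9:106222348-106222597 on the plus strand for Tlr9, chrX:167264330-167264579 on the minus strand for Tlr8 and chr9:119340042-119340268 on the minus strand for Myd88. Capitals mark matches to searched motifs.
Tlr9: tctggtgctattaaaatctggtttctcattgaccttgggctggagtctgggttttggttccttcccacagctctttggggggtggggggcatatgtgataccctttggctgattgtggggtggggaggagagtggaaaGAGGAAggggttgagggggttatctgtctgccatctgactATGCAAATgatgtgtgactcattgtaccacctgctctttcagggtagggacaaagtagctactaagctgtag
Tlr8: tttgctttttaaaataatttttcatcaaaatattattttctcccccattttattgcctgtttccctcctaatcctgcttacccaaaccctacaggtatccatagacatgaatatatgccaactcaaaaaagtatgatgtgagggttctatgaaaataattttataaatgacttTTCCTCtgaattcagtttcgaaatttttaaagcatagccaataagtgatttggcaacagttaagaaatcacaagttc
Myd88: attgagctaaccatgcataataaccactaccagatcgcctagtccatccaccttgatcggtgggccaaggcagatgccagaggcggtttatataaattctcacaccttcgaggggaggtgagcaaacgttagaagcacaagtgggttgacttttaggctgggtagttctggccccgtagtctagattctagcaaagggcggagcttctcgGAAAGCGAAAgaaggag
The capitals in Tlr9 are GAGGAA, a core bound by PU.1 and other ETS factors, and ATGCAAAT, the octamer bound by Oct factors. In Tlr8 they mark GAGGAA read on the other strand, and in Myd88 an interferon response form, GAAA, any 2 bases and GAAA again. Both strands of the 250 bases before the start were searched for these motifs and for an NF-kB motif, and the matches shown do not overlap. Among 32851 mouse promoters of that length, GAGGAA was found in 23.3%, ATGCAAAT in 1.6%, the interferon response form in 2.98% and the NF-kB motif in 3.9%. GAGGAA was also found in 1 entry of Tlr1, the NF-kB motif in Tlr2 and Tlr3, and the interferon response form in 1 entry of Tlr6. These matches describe the sequence only.

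The first comparison set T cells against diluted RNA at the highest inputs, 10000 cells against 5 ng. At every step, material goes with the form of input, cells or RNA, so these cannot be told apart. Depth differed too, with totals of 3401992 to 3627647 counts in 10000 cells and 6841726 to 7908638 in 5 ng. Tlr9, the receptor for unmethylated CpG DNA, showed the largest difference of the 10 members. It stood at 9.48, 8.82 and 11.8 CPM in the 3 libraries of 10000 cells and at 126, 107 and 110 CPM in the 3 of 5 ng. Every RNA library lay far above every T cell library. The log2 fold change, T cells minus RNA, was -3.62 (SE 0.150, adjusted p = 1.21e-30 in edgeR's quasi-likelihood test), and the mean was 11.4 times as high in RNA. In bulk samples, fewer cells of a type and less RNA per cell cannot be told apart.

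Tlr7, which binds single-stranded RNA, had 16.2, 16.3 and 22.3 CPM in 10000 cells and 62.8, 71.5 and 63.6 CPM in 5 ng RNA, with no overlap. The log2 fold change was -1.97 (SE 0.158, adjusted p = 5.10e-17). Tlr8, the closest relative of Tlr7, had 2.79, 1.10 and 0.588 CPM in cells and 11.5, 16.1 and 16.6 CPM in RNA. Its difference was larger, at -3.39 (SE 0.408, adjusted p = 1.36e-10), from 16 counts in all 3 T cell libraries together. Tlr3, the receptor for double-stranded RNA, had 5.58, 3.31 and 5.00 CPM in cells and 21.2, 21.2 and 20.2 CPM in RNA, a log2 fold change of -2.28 (SE 0.282, adjusted p = 3.04e-10). All 4 endosomal receptors were thus lower in T cells, with groups that did not overlap.

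Among the surface receptors, Tlr4, which senses lipopolysaccharide together with Ly96 and Cd14, differed most. It had 9.48, 6.34 and 5.88 CPM in cells and 43.3, 33.6 and 28.4 CPM in RNA, and the log2 fold change was -2.38 (SE 0.231, adjusted p = 9.56e-14). Tlr2, the shared partner in the lipopeptide receptors, had 8.37, 9.92 and 7.64 CPM against 23.1, 23.5 and 25.5 CPM, a log2 fold change of -1.58 (SE 0.237, adjusted p = 5.35e-08). The groups did not overlap for either gene.

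Tlr1, which pairs with Tlr2 on triacylated lipopeptides, was the highest receptor in both materials and differed far less. It had 114, 107 and 121 CPM in cells and 151, 151 and 151 CPM in RNA, a log2 fold change of -0.52 (SE 0.0809, adjusted p = 1.60e-07). Tlr6, which pairs with Tlr2 on diacylated lipopeptides, had 10.6, 10.5 and 10.9 CPM against 18.6, 17.0 and 14.9 CPM, a log2 fold change of -0.77 (SE 0.250, adjusted p = 0.00731). Both were lower in every T cell library than in any RNA library. Tlr1 and Tlr6 are close paralogs, and how reads that fit both were counted is not given in the sources used here, so the split between them is uncertain.

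Tlr5, the flagellin receptor, was the only member higher in T cells. It had 4.46, 2.76 and 5.29 CPM in cells and 2.05, 0.534 and 1.90 CPM in RNA, a log2 fold change of 1.36 (SE 0.591, adjusted p = 0.0456). That call was lost when any of the 6 libraries was left out, with log2 fold changes of 0.95 to 1.62 and adjusted p from 0.0543 to 0.232. Myd88 had 67.8, 51.3 and 66.7 CPM in cells and 75.0, 67.1 and 71.1 CPM in RNA, and its groups overlapped. Its log2 fold change was -0.31 (SE 0.118, adjusted p = 0.0212), which became -0.19 (adjusted p = 0.169) with library sizes alone in place of TMM. It was also lost without replicate 2 of the 10000 cells (-0.23, adjusted p = 0.112) and without replicate 1 of the 5 ng RNA (-0.29, adjusted p = 0.0704).

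**Figure D1:**
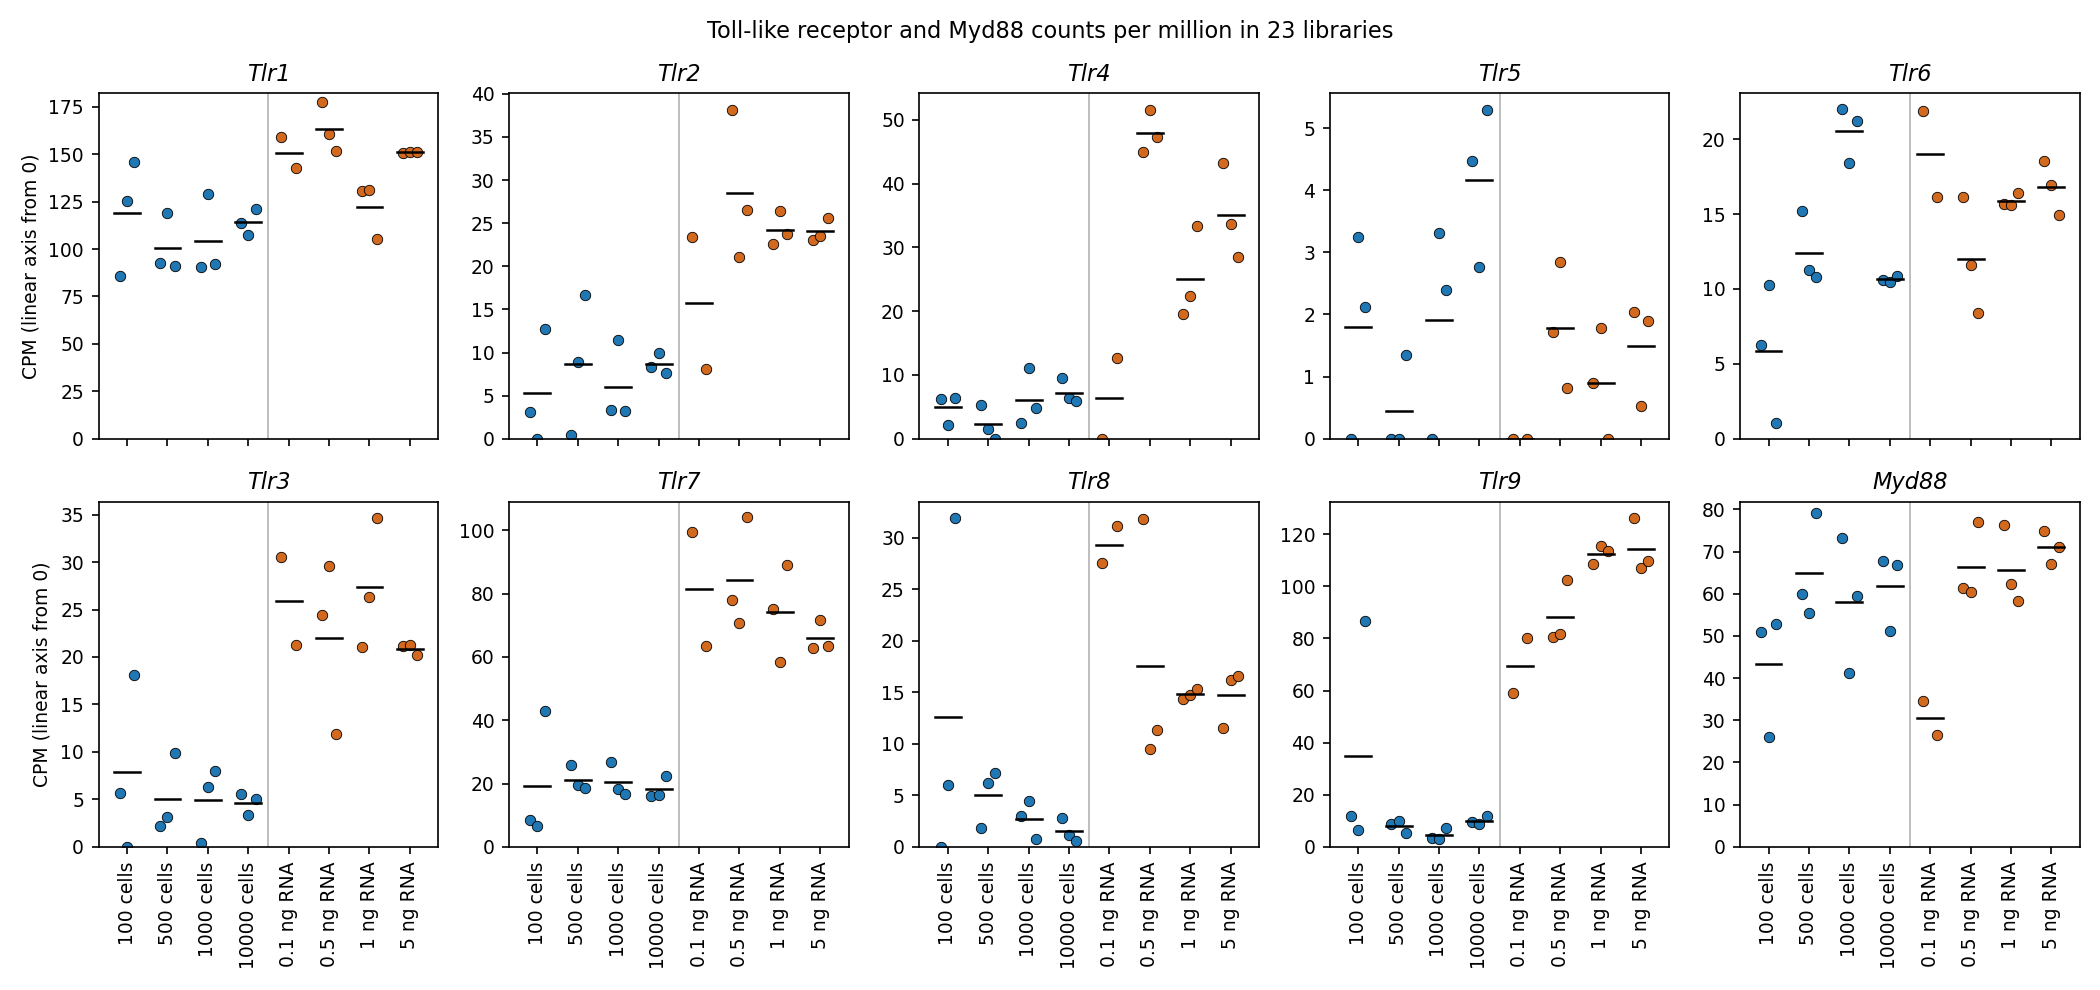
Scaled counts (CPM, linear axis from 0) of the 9 receptors and Myd88 in each of 23 libraries, by input group. Points are libraries, horizontal lines are group means, T cells are blue and diluted RNA is orange. Tlr9 lies at 8.82 to 11.8 CPM in 10000 cells and 107 to 126 CPM in 5 ng RNA, and replicate 3 of the 100 cells reaches 86.7 CPM.

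In all, 10 of the 10 members passed the threshold of 0.05 at the highest inputs, 1 higher and 9 lower in T cells. Of all 14425 genes tested, 56% passed, 28.7% higher and 27.3% lower. The groups did not overlap for 1 member higher and 8 lower in T cells, against 36.3% and 25.1% of all genes. The median log2 fold change was -1.78 over the members and 0.03 over all genes tested. With library sizes alone the median of all genes became 0.15.

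The same difference was read at 3 lower inputs, from separate libraries of T cells and diluted RNA. Markers of other cell types differed between the T cell groups too, as given below. At 1000 cells against 1 ng, 6 of 9 members tested were lower in T cells and 0 were higher, where 20% of all genes passed as lower and 20.1% as higher (40% in either direction). Tlr9 again differed most, with 3.38, 2.95 and 7.19 CPM in cells and 109, 115 and 114 CPM in RNA. Its log2 fold change was -4.65 (SE 0.259, adjusted p = 2.06e-13). Tlr3 (-2.46), Tlr8 (-2.42), Tlr4 (-2.01), Tlr2 (-1.997) and Tlr7 (-1.86) also passed. Tlr1 (-0.24), Myd88 (-0.20) and Tlr6 (0.36) did not pass, and Tlr5 was under the filter on low counts. Without replicate 2 of the 1000 cells, Tlr1 passed at -0.45 (adjusted p = 0.0236), where 37.2% of all genes passed.

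At 500 cells against 0.5 ng, 7 of 9 members tested were lower and 0 higher, where 18.1% of all genes passed as lower and 19% as higher (37.1% in either direction). Tlr4 differed most here, with 5.36, 1.55 and 0 CPM in cells and 45.0, 51.5 and 47.3 CPM in RNA, a log2 fold change of -4.38 (SE 0.532, adjusted p = 8.35e-07). Tlr9 (-3.43), Tlr3 (-2.13), Tlr7 (-1.998), Tlr8 (-1.79), Tlr2 (-1.72) and Tlr1 (-0.70) also passed. The call for Tlr2 was lost in DESeq2 (-1.71, adjusted p = 0.197) and with all groups in 1 fit (-1.76, adjusted p = 0.0654), and also without replicate 2 of the 500 cells (-1.77, adjusted p = 0.0710) or replicate 1 of the 0.5 ng RNA (-1.497, adjusted p = 0.0841). That for Tlr8 was lost with all groups in 1 fit (-1.83, adjusted p = 0.0889), and also without replicate 1 of the 500 cells (-1.42, adjusted p = 0.0905) or of the 0.5 ng RNA (-1.08, adjusted p = 0.291). Tlr6 (0.03) and Myd88 (-0.04) did not pass.

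At 100 cells against 0.1 ng, 0 of 9 members tested passed in edgeR's quasi-likelihood test, 1 had an unadjusted p under 0.05, and DESeq2 called 0. Of all genes, 0.0535% passed in edgeR and 5.38% in DESeq2. Tlr7 had 8.32, 6.49 and 42.8 CPM in the 3 libraries of 100 cells and 99.3 and 63.3 CPM in the 2 of 0.1 ng RNA. Tlr9 had 12.0, 6.49 and 86.7 CPM in cells and 59.1 and 80.02 CPM in RNA. In both genes the high T cell library was replicate 3, and for Tlr9 it lay above both RNA libraries. Without it, Tlr7 passed at -3.42 (adjusted p = 0.0284, against -2.04 and 0.275 with it), where 4.46% of all genes passed. Tlr9 had -2.88 without it (adjusted p = 0.0636, against -0.96 and 0.673 with it).

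**Figure D2:**
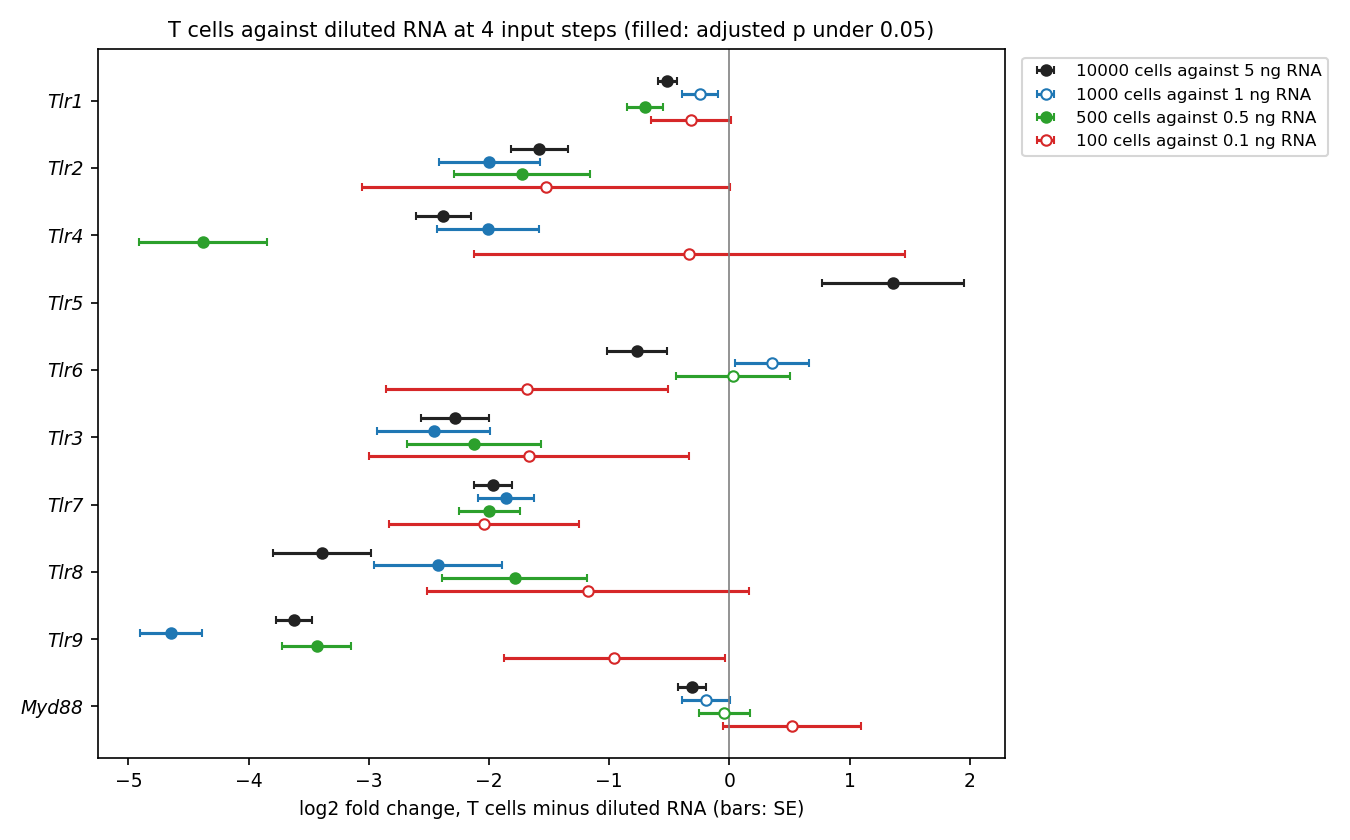
Log2 fold change of T cells minus diluted RNA for each member at 4 input steps, with bars for the standard error. Filled points passed an adjusted p of 0.05, and open points did not. Tlr9 lies at -3.62, -4.65 and -3.43 at the 3 higher steps, while Myd88 stays between -0.31 and 0.52.

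Tlr3, Tlr4, Tlr7, Tlr8, Tlr9 and Tlr2 were lower in T cells at all 3 of the higher input steps, and Tlr1 at 2 of them. For Tlr2 and Tlr8 this holds for the main test, since their calls at 500 cells were lost under the settings named above, and that of Tlr2 at 10000 cells was lost with all groups in 1 fit (-1.56, adjusted p = 0.113). Tlr6 moved in different directions. Its libraries lay at 10.5 to 10.9 CPM in 10000 cells and 14.9 to 18.6 CPM in 5 ng, but at 18.4 to 22.0 CPM in 1000 cells and 15.6 to 16.4 CPM in 1 ng. The test of that change in the difference, added after the data were seen, gave -1.09 (SE 0.382, adjusted p = 0.171) and did not pass. No member passed a test of this kind in any of the 57 that could be run over members and pairs of input steps, and the smallest adjusted p was that of Tlr4 between the highest step and the 500-cell step (2.05, SE 0.586, adjusted p = 0.0612).

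Markers of other cell types moved with these differences. In 10000 cells and 5 ng RNA, B cell markers took 0.133% to 0.150% and 3.91% to 4.04% of the counts, with all 15 detected in each library. Macrophage and monocyte markers took 0.0455% to 0.0471% and 0.424% to 0.435%, with 14 or 15 of 15 detected in cells and 15 in RNA. Neutrophil markers took 0.00532% to 0.00655% and 0.514% to 0.539%, with 12 or 13 of 13 detected in cells and 13 in RNA. Dendritic cell markers took 0.0232% to 0.0243% and 0.0815% to 0.0850%, with all 11 detected in both. The RNA to T cell ratio of mean shares was 86.6 for neutrophil, 66.7 for erythroid, 28.4 for B cell, 25.2 for red pulp macrophage, 9.26 for macrophage and monocyte and 3.48 for dendritic cell markers. The ratios of mean CPM of the members ran from 0.358 for Tlr5 to 11.4 for Tlr9. The part of these cell types in the receptor differences was not tested.

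Replicate 3 of the 100 cells was above replicates 1 and 2 in Tlr7, Tlr8, Tlr9 and Tlr3. The surface receptors Tlr1 (146 CPM, against 85.8 and 125) and Tlr2 (12.8 CPM, against 3.12 and 0) were also highest in it. Its Tlr4 (6.38 CPM) was close to that of replicate 1 (6.24 CPM). Replicate 3 had 31.9 CPM of Tlr8, against 0 and 5.95 CPM in replicates 1 and 2, and 18.1 CPM of Tlr3, against 5.72 and 0 CPM. Tlr6 went the other way, with 1.06 CPM against 6.24 and 10.3 CPM. The 15 macrophage and monocyte markers took 0.190% of its counts, against 0.0382% and 0.0345%, and all 15 were detected, against 11 and 13. Erythroid markers took 0.162%, against 0.00385% and 0.00433%. The part of these markers in its receptor levels was not tested.

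**Figure D3:**
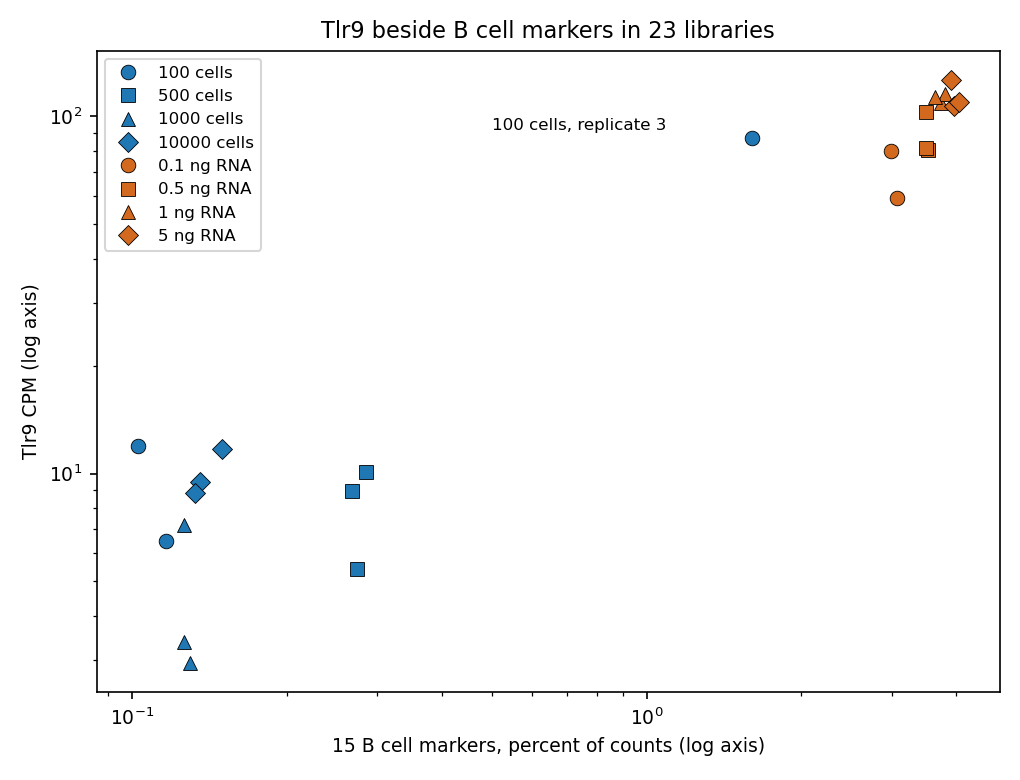
Tlr9 CPM against the share of counts in 15 B cell markers, each point a library, both axes logarithmic. The RNA libraries lie at 2.98% to 4.04% and 59.1 to 126 CPM. Replicate 3 of the 100 cells, at 1.60% and 86.7 CPM, lies between them and the other T cell libraries on the marker axis.

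Levels were compared between genes only per kilobase of exon, since a longer transcript can give more counts. Whether counts scale with exon length in these oligo-dT primed libraries was not tested, which limits the orders and shares given per kilobase. In 10000 cells, Tlr1 led with 34.1 ± 2.07 CPM per kilobase (SD, n = 3), followed by Myd88 with 24.0 ± 3.58 and Tlr7 with 4.47 ± 0.866. Tlr9 (2.88), Tlr2 (2.87) and Tlr6 (2.86) followed, with overlapping libraries. Tlr4 (1.30), Tlr3 (0.889), Tlr5 (0.871) and Tlr8 (0.416) came last, and each overlapped its neighbour in that order. In 5 ng RNA, Tlr1 led with 45.1 ± 0.0944 CPM per kilobase, Tlr9 was second with 32.9 ± 3.03, and Myd88 followed with 27.6 ± 1.52. Tlr7 (16.2), Tlr2 (7.98), Tlr4 (6.32), Tlr6 (4.51), Tlr8 (4.11), Tlr3 (4.01) and Tlr5 (0.312) came after. Libraries overlapped there between Tlr2 and Tlr4, between Tlr6 and Tlr8 and between Tlr8 and Tlr3.

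The makeup of the receptor pool differed accordingly. Tlr1 alone gave 67.3% ± 0.386 of the summed receptor CPM per kilobase in 10000 cells and 37.2% ± 1.03 in 5 ng RNA (SD, n = 3 each). Tlr9 gave 5.67% ± 0.533 and 27.1% ± 1.85. The 5 surface receptors together gave 83.0% ± 1.41 in 10000 cells and 52.9% ± 0.227 in 5 ng RNA. By group, the surface share ran between 73.9% and 83.0% for T cells (the 100-cell mean, 73.9%, was 85.4% without replicate 3) and between 47.2% and 56.1% for RNA. In 100 cells it was 81.8%, 89.0% and 51.0% in replicates 1, 2 and 3, so replicate 3 lay among the RNA libraries. The ratio of Myd88 to the receptor sum was 0.473 ± 0.0492 in 10000 cells and 0.227 ± 0.00946 in 5 ng RNA.

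**Figure D4:**
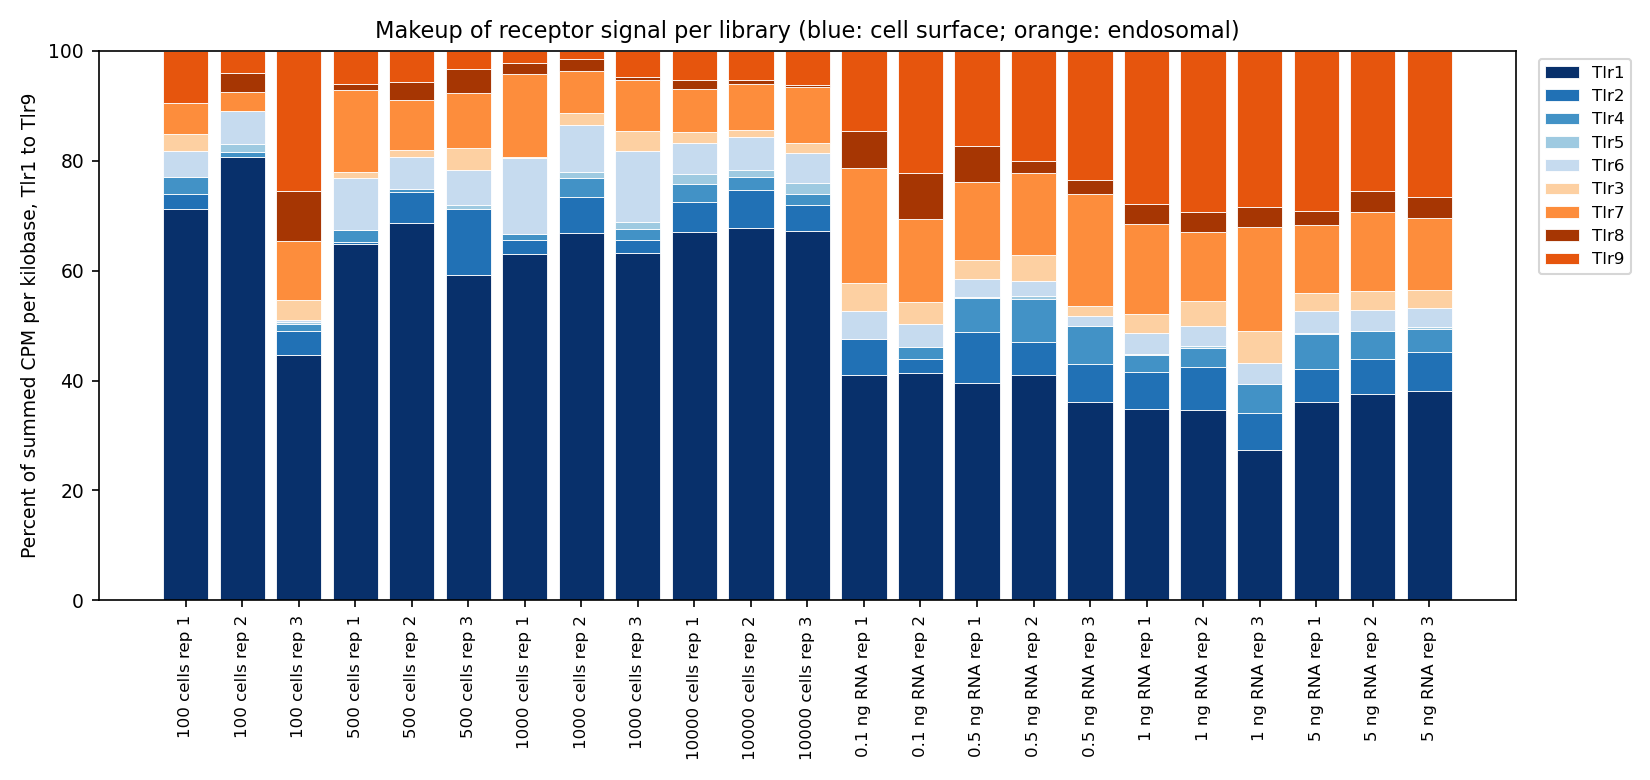
Share of each receptor in the summed CPM per kilobase of Tlr1 to Tlr9, as percent, in each of 23 libraries. Blue shades are surface receptors and orange shades endosomal ones. Tlr1 takes 67.3% on average in 10000 cells and 37.2% in 5 ng RNA, and replicate 3 of the 100 cells has a surface share of 51.0%.

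Within T cells, the question was whether the members kept their level as the input fell. The groups also differed in markers of other cell types. B cell markers took 0.275% ± 0.00860 of counts in 500 cells (SD, n = 3). In 1000 and 10000 cells they took 0.127% ± 0.00217 and 0.1395% ± 0.00919. Erythroid markers averaged 0.0179%, 0.0266% and 0.00691% in the same groups. The part of these markers in the comparisons below was not tested. Against 10000 cells, 0 members passed at 100, 500 or 1000 cells in edgeR's quasi-likelihood test, with 0, 1 and 2 at an unadjusted p under 0.05, and DESeq2 called 0 in each. Of all genes, 0%, 3.21% and 3.27% passed in edgeR, and 2.54%, 4.21% and 3.75% in DESeq2. The member with the largest difference was Tlr9 at 100 cells (1.82, SE 0.827, adjusted p = 0.428), where replicate 3 is the high library, and without it the value was -0.15 (adjusted p = 0.912). It was Tlr4 at 500 cells (-1.65, SE 0.791, adjusted p = 0.296) and Tlr9 at 1000 cells (-1.13, SE 0.509, adjusted p = 0.263). Without replicate 3 of the 500 cells, 1 member (Tlr5) passed at that step, where 3.29% of all genes passed. Both 500-cell libraries left in that fit were at 0 for Tlr5. With all libraries in, Tlr5 was under the filter on low counts there. Over log10 of the cell number, 0 of 9 members tested had a slope that passed in edgeR, with 2 at an unadjusted p under 0.05. DESeq2 called 0 as well. The shares of all genes that passed were 0.76% in edgeR and 1.73% in DESeq2. The slope of Tlr8 was -1.55 (SE 0.515, adjusted p = 0.176) and that of Tlr9 -0.87 (SE 0.347, adjusted p = 0.270). Without replicate 3 of the 100 cells they were -0.73 (adjusted p = 0.724) and 0.13 (adjusted p = 0.917). Without replicate 1, which leaves replicate 3 in, 1 member (Tlr8) passed, where 1.11% of all genes passed.

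Within diluted RNA, Myd88 was lower at the lowest input. It had 34.6 and 26.5 CPM in the 2 libraries of 0.1 ng and 75.0, 67.1 and 71.1 CPM in the 3 of 5 ng. The log2 fold change was -1.26 (SE 0.211, adjusted p = 0.0282), and Myd88 was the only member of 10 to pass, where 6.55% of all genes passed as lower and 11.2% in either direction. The call was lost without replicate 1, 2 or 3 of the 5 ng RNA, at -1.19 (adjusted p = 0.162), -1.27 (0.166) and -1.23 (0.164). Without replicate 1 of the 0.1 ng RNA, 5 members passed (Tlr2, Tlr4, Tlr8, Tlr9 and Myd88), and without replicate 2, 5 passed (Tlr4, Tlr7, Tlr8, Tlr9 and Myd88), each with a single 0.1 ng library assumed to vary like the 5 ng group. Of all genes, 52.8% and 54.4% passed in those fits, so 5 of 10 members is near the background.

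Against 5 ng, 0 of 10 members passed at 0.5 ng (3 at an unadjusted p under 0.05, and 0 by DESeq2) and 0 at 1 ng (2 at an unadjusted p under 0.05, and 0 by DESeq2). Of all genes, 5.09% and 0.0238% passed in edgeR, and 6.73% and 0.254% in DESeq2. Without replicate 3 of the 0.5 ng RNA, 1 member (Tlr9) passed at that step, where 5.67% of all genes passed. Tlr9 averaged 69.6, 88.3, 113 and 114 CPM at 0.1, 0.5, 1 and 5 ng. Its slope was 0.43 per 10-fold of RNA on the log2 scale (SE 0.118, adjusted p = 0.0385), and it was the only one of 9 members tested to pass, where 2.12% of all genes passed as higher and 5.68% in either direction. The call was lost without replicate 1 of the 0.1 ng or of the 1 ng RNA, or without replicate 1, 2 or 3 of the 5 ng RNA, with slopes of 0.36 to 0.48 and adjusted p from 0.0513 to 0.0983. B cell markers moved with it, from 2.98% to 3.06% of counts at 0.1 ng to 3.91% to 4.04% at 5 ng. The mean shares of all the other marker lists were also higher at 5 ng than at 0.1 ng. At 0.1 and 5 ng, neutrophil markers took 0.379% and 0.525%, erythroid 0.291% and 0.461%, and T cell 0.195% and 0.216%. The part of any of these markers in the slope was not tested. The difference of the Tlr9 slopes between T cells and RNA, a test added after the data were seen, was -1.45 (SE 0.466, adjusted p = 0.0887), and -0.38 (adjusted p = 0.459) without replicate 3 of the 100 cells.

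For the members, the spread between replicates was smallest at the highest input of each material, with no steady fall at the inputs below it. The median coefficient of variation over the members was 99.3% in 100 cells, 43.5% in 500, 59.3% in 1000 and 17.4% in 10000 cells. Without replicate 3 the 100-cell value was 57.3% (n = 2). In RNA it was 21.5% at 0.1 ng (n = 2, over the 9 members with counts), 25.8% at 0.5 ng, 13.2% at 1 ng and 8.26% at 5 ng. For genes with a mean of 1 to 200 CPM, the medians fell with each rise in input. They were 60.9%, 38.8%, 33.7% and 23.6% in T cells and 54.7%, 22.9%, 18.4% and 11.9% in RNA. Low counts limit several members: Tlr5 had no count in 4 of the 12 T cell libraries and 3 of the 11 RNA libraries, including both at 0.1 ng.

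Other genes of the pathway were read from a list of 70, of which 2 are also cell type markers. At 10000 cells against 5 ng, 65 were tested, with 14 higher and 34 lower in T cells and a median log2 fold change of -0.55, where 28.7% of all genes tested were higher and 27.3% lower. The counts of the smaller lists are to be read against the same shares. Of 11 receptor partners and chaperones, 10 were lower and 1 (Lrrc32) was higher. Unc93b1, which carries the endosomal receptors out of the endoplasmic reticulum, had 39.3 ± 6.44 CPM in cells and 506 ± 15.1 in RNA (SD, n = 3 each), a log2 fold change of -3.80 (SE 0.0781). Cd180 (-4.87) and Ly86 (-5.09), which form a receptor relative on B cells, and Hsp90b1 (-1.52), the chaperone that folds the receptors, were lower as well. Tlr13, a mouse receptor for bacterial ribosomal RNA, was lower at 4.08 ± 1.27 against 39.2 ± 4.75 CPM (-3.38, SE 0.246), and Tlr11 was lower too (-1.67). Tlr12 had a log2 fold change of 0.13 and did not pass.

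Of the 5 adaptors beside Myd88, 4 were lower in T cells and 1 (Sarm1, 1.16) was higher. Pik3ap1, which links receptors to phosphoinositide kinase, differed most (-3.71), followed by Tirap, the bridge between Tlr2 or Tlr4 and Myd88 (-2.02). Ticam1, the adaptor of Tlr3, was nearer to level (-0.73). Of 15 kinases and ubiquitin ligases, 3 were higher and 7 lower, with Ikbke at 384 ± 19.7 against 76.5 ± 8.59 CPM (2.22, SE 0.0715), while Irak1 (-0.10) did not pass.

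Of 9 inhibitors, 4 were higher and 1 (Irak3) was lower. Tnfaip3, a deubiquitinase that limits NF-kB, had 289 ± 22.1 against 94.2 ± 2.32 CPM (1.51, SE 0.0721), and Dusp1 was also higher (1.24). Of 11 transcription factors, 4 were higher and 5 lower, with Irf8, a factor of B and myeloid cells, at -3.92 and Fos at 1.36. Nfkb1 (-0.01) did not pass. Of 16 induced cytokine and chemokine genes, 11 were tested, 1 (Nos2) was higher and 5 were lower, with Il1b at -3.91 and Tnf at -0.38, which did not pass.

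The genes most like each member across the 23 libraries are given as a description, since the libraries share their material. Tlr9 was most like S100a9, a neutrophil calcium-binding protein (Pearson's r = 0.978 on log2(CPM + 1)), and the immunoglobulin genes Igkv5-39 and Ighv1-53 (0.977 and 0.976). Tlr7 was most like Fgd2 (0.973), Tlr3 like Mdfic (0.962), Tlr2 like Tirap (0.918), Tlr8 like Rreb1 (0.916), Tlr4 like Zfp207 (0.906), Myd88 like Zfp113 (0.871), Tlr1 like Lpcat1 (0.847) and Tlr6 like Cecr2 (0.840). With the mean of each material taken off, Tlr9 was most like H2-Aa, a class II histocompatibility gene (0.901). Tlr6 was then most like Cd8b1 (0.847), a chain of the CD8 coreceptor, Gimap4 (0.835) and Cecr2 (0.833). The first match was Mdfic for Tlr3 (0.894), Zfp113 for Myd88 (0.894), Zfp934 for Tlr7 (0.892) and Sdhd for Tlr4 (0.871). It was Tirap for Tlr2 (0.835), Adgre4 for Tlr8 (0.829) and Kcna2 for Tlr1 (0.740). All these values include replicate 3 of the 100 cells.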

How the data were processed

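The authors deposited whole-number counts per gene symbol, not normalized, for all 23 libraries. The submitters' processing notes name HISAT2 2.1.0, featureCounts without a version, and build mm8. Because that build differs from the reference, no coordinates were tied to counts.

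CPM is the count over the column total. Lengths per kilobase are union exon lengths of GENCODE M21, found for 99.6% of symbols. The quasi-likelihood test of edgeR 4.0.16 (R 4.3.3) was run with TMM and filterByExpr on the libraries compared. Its p-values were adjusted by Benjamini-Hochberg over all genes tested, and 0.05 was the threshold. As a further test, slopes over log10 input were fitted within a material. SE is the log2 fold change over the square root of F. The fits were tested on simulated data.

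Named were all members, up to 4 genes of highest mean CPM per pathway list, Tlr11 to Tlr13, and up to 3 genes most like each member. The counts called also name other list genes. Alternatives were DESeq2 1.42.0, other scalings, no filter, the replicate block, 1 fit over all groups, and leaving out each replicate. Members, lists and motifs were chosen with earlier results of these data known.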

Additional observations from a re-analysis of the deposited data

Results flagged for a closer look

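Tlr6 differed between T cells and diluted RNA in opposite directions at different input steps, with libraries that did not overlap at either step. Between 10000 cells against 5 ng and 1000 cells against 1 ng, the difference of the log2 fold changes was -1.09 (SE 0.382, adjusted p = 0.171 in edgeR's quasi-likelihood test). Between 1000 cells against 1 ng and 100 cells against 0.1 ng it was 2.09 (SE 0.942, adjusted p = 0.285). Neither passed the threshold. Tlr6 in 100 cells was 6.24, 10.3 and 1.06 CPM, and the lowest of these is replicate 3, the library that stood apart.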

How the results depend on the processing

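The count of members called at 1000 cells against 1 ng and at 500 cells against 0.5 ng stayed within 1.5 times of the main count under every alternative run. With all groups in 1 fit, 6 were called at 10000 cells against 5 ng. Tlr2, Tlr5, Tlr6 and Myd88 were lost there, at adjusted p of 0.113, 0.509, 0.273 and 0.438. That fit called 2 at 100 cells against 0.1 ng, 2 at 100 against 10000 cells (Tlr8, Tlr9) and 2 at 0.1 against 5 ng. Of all 18836 genes in it, 22.7%, 22.3%, 4.44% and 15.0% passed in these comparisons, in that order. With no filter on low counts, 1 was called at 100 cells against 0.1 ng, 1 at 0.5 against 5 ng, and 2 over log10 ng. Of all genes, 3.37%, 4.06% and 6.76% passed in those fits. DESeq2 called 2 at 0.1 against 5 ng, where 21.4% of all genes passed, and 2 over log10 ng (Tlr9, Myd88), where 11.9% passed. With the replicate block, 2 were called at 100 cells against 0.1 ng (Tlr7 and Tlr9) and 0 over log10 ng. At 0.1 against 5 ng, Tlr4 was called under the block in place of Myd88 (adjusted p = 0.193). Of all genes, 8.88%, 1.80% and 2.80% passed in those blocked fits. Under the block, Tlr5 at 10000 cells against 5 ng (adjusted p = 0.0768) and Tlr8 at 500 cells against 0.5 ng (adjusted p = 0.0764) did not pass either. Replicate numbers did not pair the libraries (0 of 77 same-numbered pairs over 0.1, range -0.0283 to 0.0256). Leaving out each replicate gave 0 to 1 members at 100 cells against 0.1 ng, 0 to 1 at 500 against 10000 cells, 0 to 5 at 0.1 against 5 ng, 0 to 1 at 0.5 against 5 ng, 0 to 1 over log10 cells and 0 to 2 over log10 ng. The cause of these changes was not tested.

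Values that changed sign were all uncalled. Tlr6 at 500 cells against 0.5 ng (0.03) became -0.055 with no filter, -0.0053 with all groups in 1 fit, -0.16 without replicate 1 of the 500 cells, and -0.02 and -0.20 without replicates 2 and 3 of the 0.5 ng RNA (range over left-out replicates -0.20 to 0.26). Myd88 there (-0.04) became 0.03 without replicate 2 of the 500 cells and 0.048 without replicate 3 of the 0.5 ng RNA (range -0.24 to 0.048). Tlr4 at 100 cells against 0.1 ng (-0.33) became 0.93 with the replicate block, 0.02 without replicate 2 of the 100 cells and 6.57 without replicate 2 of the 0.1 ng RNA, where 1 library at 0 remained (range -1.33 to 6.57).

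Over all genes, counts called moved by over 1.5 times in these cases. At 10000 cells against 5 ng they went from 8073 to 4269 with all groups in 1 fit. At 100 cells against 0.1 ng they went from 7 to 703 in DESeq2, 696 with no filter, 1161 with the replicate block, 4198 with all groups and 3 with DESeq2 size factors. At 100 against 10000 cells they went from 0 to 358 in DESeq2, 7 with no filter, 2 with the block and 836 with all groups. At 500 and 1000 against 10000 cells they went from 439 and 438 to 65 and 24 with all groups. At 0.1 against 5 ng they went from 1572 to 2994 in DESeq2, 392 with the block and 2816 with all groups, and at 0.5 against 5 ng from 639 to 22 with all groups. At 1 against 5 ng they went from 3 to 32 in DESeq2, 42 with no filter, 33 with the block and 0 with all groups. Over log10 cells they went from 115 to 261 in DESeq2, 188 with no filter and 49 with the block, and over log10 ng from 792 to 1660, 1413 and 251. Leaving out each replicate gave 0 to 545, 0 to 357, 149 to 505, 181 to 411, 0 to 8075, 172 to 815, 2 to 45, 14 to 181 and 474 to 856 in these comparisons, in the same order from 100 cells against 0.1 ng on. Tlr5 was at 0 in 7 of the 23 libraries.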
